A study of Canis lupus familiaris and Dasypus novemcinctus and Ornithorhynchus anatinus with 3 samples.

Results

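This account follows 10 genes of the uterine glands through messenger RNA sequencing of the pregnant endometrium, the lining of the uterus, in 3 species. The genes were chosen by name as known gland products, together with the gland transcription factor FOXA2, and were looked up by upper-case gene symbol in the gene tables of dog, armadillo and platypus. The dog table lists 6 of the 10 among its 19290 genes (STC1, CST6, GRP, FOXA2, WFDC2 and LCN2). The armadillo table lists 7 among 12335 (SPP1, STC1, GRP, FOXA2, LTF, SLPI and MUC1), and the platypus table lists 5 among 18481 (SPP1, STC1, CST6, FOXA2 and WFDC2). Thus 2 genes, STC1 and FOXA2, could be followed in all 3 species, 4 in a pair of species and 4 in a single species.

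Each group was 1 library of pregnant endometrium: dog and armadillo, which are placental mammals, and platypus, which lays eggs. The labels give no treatment, strain, age, stage of pregnancy or number of animals, and nothing says whether fetal or placental tissue was removed. With 1 library per species there is no replicate check and no test, so every difference below is between these libraries. Levels are CPM, reads of a gene scaled to 1000000 reads summed over the table. Intervals are exact 95% intervals that cover counting error only, and reads are not independent molecules. Fewer gland cells and less RNA per gland cell cannot be told apart in such bulk samples. CPM is not corrected for gene length, and gene models of unequal length in 2 species would enter their ratio.

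Uterine glands are tubes of epithelium that open into the uterine cavity and release proteins, ions and sugars on which the conceptus depends before and during attachment. Their formation and function require FOXA2, a forkhead transcription factor of the gland epithelium, and their output is set by progesterone, oestrogen and signals from the conceptus. Known products include the adhesion phosphoprotein osteopontin (SPP1), the hormone stanniocalcin 1 (STC1), the peptide gastrin-releasing peptide (GRP), inhibitors of proteases (CST6, SLPI, WFDC2), iron-binding or iron-withholding antimicrobial proteins (LTF, LCN2) and the cell-surface mucin MUC1.

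The dog library held 13625465 reads, that of armadillo 13218476 and that of platypus 2243556, so 1 read was worth 0.0734, 0.0757 and 0.446 CPM. A gene listed at 0 may have had up to 3 reads, which is 1.34 CPM in platypus. Absence of reads under a symbol did not always mean absence of the gene's RNA. Of the ribosomal protein genes, which every cell uses, 6 of 40 were at 0 in dog and 7 of 49 in platypus. Armadillo lists no gene at 0, so a gene missing there, as in the other tables, is called not listed and is not taken as 0. A gene was called different where it was at least 4-fold apart on the log2(CPM + 1) scale and the higher library reached 5 CPM. By that rule 25.8% of 8854 matched genes differed between dog and armadillo, 41.9% of 9026 between dog and platypus and 47.1% of 7296 between armadillo and platypus.

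Of the members present in both tables, 2 of 3 were called between dog and armadillo (STC1 and GRP, both higher in armadillo), against a background of 25.8%, made up of 12.6% of genes higher in dog and 13.2% higher in armadillo. Between dog and platypus 2 of 4 were called, against 41.9%: CST6 was higher in dog and FOXA2 in platypus. Between armadillo and platypus all 3 were called, against 47.1%: SPP1 and STC1 were higher in armadillo and FOXA2 in platypus. The members' median log2 fold was -2.38 for dog over armadillo, 0.63 for dog over platypus and 2.99 for armadillo over platypus, beside 0.00, 0.61 and 1.06 over all matched genes. With 3 or 4 members a comparison, these counts describe single genes, and nothing particular to the set can be read from them. The 3 comparisons share their libraries, so they are not separate pieces of evidence.

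**Figure D1:**
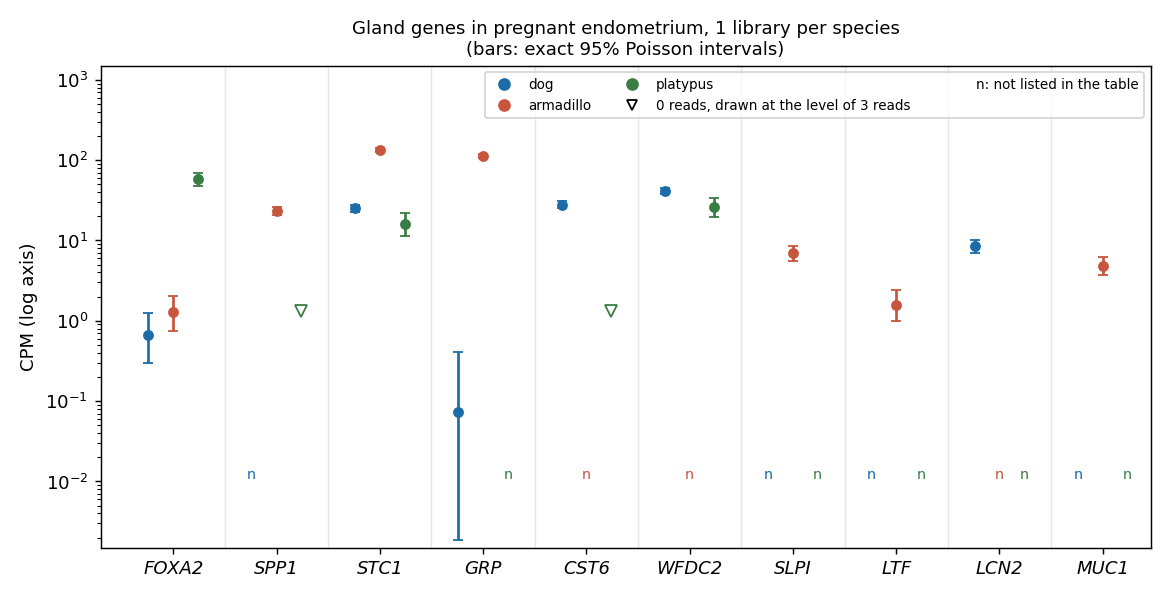
CPM of each member (log axis) in the dog, armadillo and platypus libraries; bars are exact 95% Poisson intervals, open triangles mark 0 reads drawn at the level of 3 reads, and n marks a table that does not list the gene. FOXA2 is highest in platypus (57.5 CPM), and STC1 and GRP are highest in armadillo (134 and 113 CPM), GRP not being listed in platypus. SLPI, LTF, LCN2 and MUC1 are each listed in a single table.

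FOXA2, the factor of the gland epithelium, was high in platypus and low in both placental mammals. It had 9 reads in dog (0.661 CPM, 95% interval 0.302 to 1.25), 17 in armadillo (1.29 CPM, 95% interval 0.749 to 2.06) and 129 in platypus (57.5 CPM, 95% interval 48.0 to 68.3). Of the ribosomal protein genes, 10 of 40 had 10 reads or fewer in dog and 2 of 49 in armadillo. A low dog count under a symbol therefore need not mean little of the gene's RNA. The platypus level was 87.0-fold (95% interval 44.5 to 195) that of dog and 44.7-fold (95% interval 26.9 to 79.1) that of armadillo. For comparison, 9.93% of all matched genes were called higher in platypus than in dog and 11.0% higher than in armadillo. Dog and armadillo could not be separated: their ratio was 1.95 with an interval of 0.821 to 4.96, and both stood below 2 CPM. By rank among matched genes the order was the other way, with FOXA2 at the 14.9th percentile in dog and the 12.1th in armadillo. Dog lists genes at 0 and armadillo none, which can raise the ranks of other dog genes. Of its relatives, FOXA1, a forkhead factor of hormone-responsive epithelia, had 1 read in dog and 2 in armadillo and is not listed in platypus, and FOXA3 had 1 read in dog and is listed in no other table.

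The platypus library that held the most FOXA2 had few reads of most general epithelial markers and many of some cilia genes. Of 12 epithelial markers, 6 were listed in both dog and platypus and 5 of them were higher in dog, with a summed level of 2885 CPM in dog and 28.1 in platypus. Between armadillo and platypus 4 of 7 were higher in armadillo (608 and 29.9 CPM). Between dog and armadillo 4 of 5 were higher in dog (2680 and 595 CPM), or 3 of 5 with median-of-ratios scaling. The shares of all matched genes called in these directions were 32.0%, 36.1% and 12.6%. EPCAM, an adhesion molecule of epithelia, had 1 read in platypus and KRT7, a keratin of simple epithelia, had 5, while CLDN3, ELF3 and ST14 were listed at 0. ESRP1, a splicing factor of epithelial cells, made up most of the platypus sum with 52 reads (23.2 CPM), and was 3.22-fold (95% interval 2.25 to 4.57) higher there than in armadillo (7.19 CPM). In the opposite direction, 4 of 5 markers of ciliated cells, which line the oviduct and parts of the uterus, were higher in platypus than in dog, with summed levels of 795 and 0.440 CPM. Their defining factor FOXJ1 stood at 498 CPM in platypus and 0.440 in dog, and is not listed in armadillo. The axoneme gene SPAG6 stood at 115, 0 and 1.74 CPM in platypus, dog and armadillo. Against armadillo 2 of 4 were higher in platypus, while DNAI1 had 25 reads in armadillo and 0 in platypus and TEKT1 stood at 3.25 and 1.34 CPM. All 3 smooth muscle markers listed in dog and platypus were also higher in platypus (4287 against 24.0 CPM), as was 1 of 2 stromal markers (1544 against 626 CPM). The other stromal marker, COL3A1, stood at 535 CPM in dog and 294 in platypus, below the 4-fold limit. Endothelial markers went the other way, with 2 of 3 higher in dog (108 against 20.1 CPM), beside 32.0% of all matched genes. Of all matched genes, 9.93% were called higher in platypus than in dog and 11.0% higher than in armadillo. The part of any of these cell types in the FOXA2 level was not tested.

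Other genes of gland formation and hormone response were split between the species. Of the 19 on that list, 8 were in both the dog and the platypus table, of which the dog level was higher for 1 and the platypus level for 2, with 2 at 0 in platypus. Under each other scaling 3 were higher in platypus, and with totals over matched genes 2 were higher in dog. Over all matched genes, by CPM, 32.0% were called higher in dog and 9.93% in platypus. LGR4, a receptor for R-spondins that is needed for gland development in mice, was highest in platypus like FOXA2, and is named here after its values were seen. It stood at 149 CPM in platypus, 17.5 in dog and 12.7 in armadillo, 8.49-fold (95% interval 7.17 to 10.1) above dog and 11.7-fold (95% interval 9.70 to 14.2) above armadillo. KLF5, a transcription factor of the uterine epithelium, was 60.3-fold (95% interval 49.2 to 74.6) higher in dog (433 CPM) than in armadillo (7.19 CPM), and stood at 18.7 CPM in platypus. ESR1, the oestrogen receptor that drives gland growth, was higher in platypus (956 CPM) than in dog (8.22 CPM) and is not listed in armadillo. Between dog and armadillo 1 of 7 genes of the list was higher in dog (KLF5) and 1 in armadillo (LGR5, a receptor of gland stem cells, at 6.35 against 0.0734 CPM). The shares over all matched genes were 12.6% and 13.2%. Between armadillo and platypus 2 of 10 were higher in armadillo and 1, LGR4, in platypus, beside 36.1% and 11.0% of all matched genes. The 2 were the cytokine receptor subunits IL6ST (557 CPM, listed at 0 in platypus) and LIFR (70.3 and 2.67 CPM), through which leukaemia inhibitory factor, itself a gland product, acts.

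STC1, a glycoprotein hormone that regulates calcium and phosphate and is released by the glands in several placental mammals, was highest in armadillo. It had 341 reads in dog (25.0 CPM, 95% interval 22.4 to 27.8), 1772 in armadillo (134 CPM, 95% interval 128 to 140.4) and 36 in platypus (16.0 CPM, 95% interval 11.2 to 22.2). Armadillo thus exceeded dog by 5.36-fold (95% interval 4.77 to 6.03) and platypus by 8.35-fold (95% interval 6.01 to 11.97). Dog and platypus were 1.56-fold apart (95% interval 1.10 to 2.26), below the 4-fold limit. That small difference rested on scaling: it was 1.04-fold after median-of-ratios scaling, and by rank among matched genes STC1 stood lower in dog (54.5th percentile) than in platypus (66.6th). Platypus has more genes at 0, which can raise the ranks of its other genes. The paralogue STC2 was higher in armadillo in the same way, with 6830 reads (517 CPM) against 4 in dog (0.294 CPM, 95% interval of the fold 687 to 6462), and is not listed in platypus. PAPPA, a protease of growth factor binding proteins that stanniocalcins inhibit, differed by 1.30-fold (95% interval 1.06 to 1.60) between dog (15.9 CPM) and armadillo (12.3 CPM). It was listed at 0 in platypus.

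GRP, a short peptide that stimulates smooth muscle, secretion and cell growth and is made by the glands in sheep, cow and human pregnancy, was found almost wholly in armadillo. It had 1491 reads in armadillo (113 CPM, 95% interval 107 to 119) and 1 read in dog (0.0734 CPM, 95% interval 0.00186 to 0.409), and is not listed in platypus. The ratio of armadillo to dog was 1537 with an interval of 275 to 60745, the width being set by the single dog read. Its receptor gene GRPR, picked out here after its values were seen, was also higher in armadillo, with 84 reads (6.35 CPM) against 3 in dog (0.220 CPM) and 0 in platypus. The fold over dog was 28.9 (95% interval 9.54 to 143) and that over platypus was 4.75 with platypus set at 3 reads. The related peptide NMB went the other way, at 4.62 CPM in dog and 0.605 in armadillo, too low to be called. PPIA, a gene of every cell, also had 1 read in dog under its symbol. A second dog gene entry for GRP was not found among the accession or UniProt names, in a search that could miss one (see processing).

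Armadillo also held more reads of muscle, vessel, stromal and immune markers than dog, beside the higher STC1 and GRP. Of all matched genes, 13.2% were called higher in armadillo and 12.6% in dog. Both smooth muscle markers listed in these tables were higher in armadillo (summed 21802 against 23.3 CPM), as were both endothelial markers (7713 against 77.1), 1 of 2 stromal markers (7956 against 626; both with median-of-ratios scaling), 3 of 4 markers of macrophages and other leukocytes (227 against 14.7) and 2 of 4 neutrophil markers (281.5 against 29.7). Of that armadillo neutrophil sum, 254 CPM were S100A12. The neutrophil marker S100A9 stood higher in dog (28.0 against 17.9 CPM), below the 4-fold limit. Trophoblast markers were split, with 1 of 4 higher in each (58.5 CPM in armadillo and 24.7 in dog; 0 higher in dog with median-of-ratios scaling). Of 10 housekeeping genes, just 1 was listed in both tables of each pair, too few to serve as a reference. The part of these cells in STC1 and GRP was not tested.

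**Figure D2:**
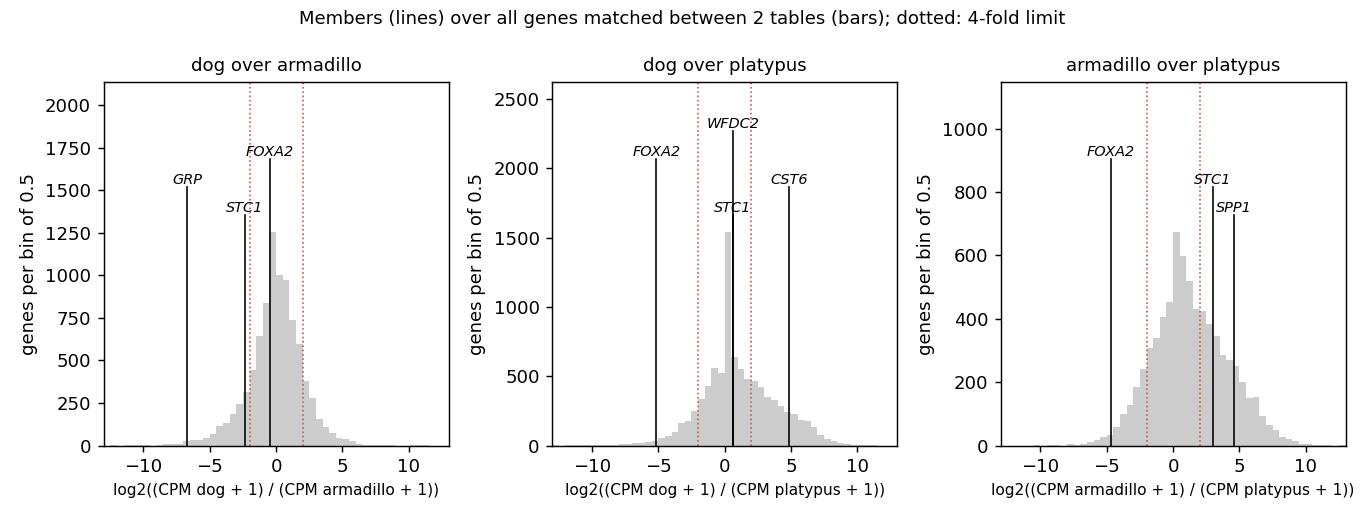
Log2 ratio of CPM + 1 between 2 libraries (x axis) for all matched genes (grey bars, genes per bin on the y axis) and for the members (black lines), with dotted lines at the 4-fold limit. GRP (-6.73, dog over armadillo) and FOXA2 (-5.14, dog over platypus; -4.68, armadillo over platypus) lie far out on the left, and STC1 and WFDC2 lie near the middle between dog and platypus.

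SPP1, the integrin-binding phosphoprotein that links uterine epithelium and trophoblast during attachment, was measured in armadillo and platypus. It had 307 reads in armadillo (23.2 CPM, 95% interval 20.7 to 26.0) and was listed at 0 in platypus. The difference was 17.4-fold with platypus set at 3 reads, without the counting error of the armadillo reads. The dog table does not list SPP1. Of the receptors and binding partners of the gland products, which include integrin subunits for SPP1, all 10 genes listed in both armadillo and platypus were higher in armadillo, beside 36.1% of all matched genes. Their median log2 fold was 3.86, or 3.25 with genes at 0 set to 3 reads, beside 1.06 and 0.75 over all genes. ITGB3, the integrin beta 3 subunit that pairs with alpha V to bind osteopontin, stood at 360.1 CPM in armadillo and 254 in dog and was listed at 0 in platypus. ITGA5, of the fibronectin receptor, stood at 1086, 80.0 and 3.12 CPM in armadillo, dog and platypus, and ITGA9 at 397, 5.58 and 1.34. ITGB1, the common beta 1 subunit, stood at 1153 CPM in armadillo, 303 in dog and 212 in platypus. Between dog and armadillo 3 of 8 genes of the list were higher in armadillo and none in dog (5 of 8 with median-of-ratios scaling, 7 of 8 with the larger dog total described under processing). Between dog and platypus 4 of 9 were higher in dog (2 of 9 with the larger dog total). Over all matched genes 13.2% were called higher in armadillo than in dog, and 32.0% higher in dog than in platypus. Several of these integrins are also made by stromal, vascular and immune cells, many of whose markers were higher in armadillo than in dog. Against platypus, 4 of 4 endothelial markers (all at 0 in platypus), 3 of 5 stromal and 1 of 2 neutrophil markers were higher in armadillo. The stromal DCN and LUM stood higher in platypus, below the 4-fold limit. No marker of macrophages and other leukocytes was in both tables. The part of those cells was not tested.

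Among the protease inhibitors, CST6, a cystatin that blocks the lysosomal proteases legumain and cathepsins, was found in dog. It had 379 reads there (27.8 CPM, 95% interval 25.1 to 30.8) and was listed at 0 in platypus. The difference was 20.8-fold with platypus set at 3 reads, without the counting error of the dog reads. In this comparison 32.0% of all matched genes were called higher in dog. The armadillo table does not list CST6. A second cystatin, CSTB, a cytosolic inhibitor of cathepsins, had the same pattern, at 163 CPM in dog and 0 in platypus. Of the targets of CST6, LGMN, which encodes legumain, stood at 768 CPM in armadillo, 45.7 in dog and 52.1 in platypus, and was 16.8-fold (95% interval 15.5 to 18.2) higher in armadillo than in dog. Between dog and platypus, where CST6 was compared, the ratio of LGMN was 1.14 in favour of platypus, with an interval of 0.928 to 1.39. CTSB, the cathepsin B gene, differed less, at 489, 282 and 139 CPM in armadillo, dog and platypus, and was called in no comparison. Over the list of enzymes that act on the gland products or are held by them, 3 of 7 were higher in armadillo and none in dog. Of the 7 that dog shares with platypus, PAPPA was higher in dog and FAM20C, a kinase that phosphorylates secreted proteins, in platypus (123 against 11.4 CPM). Armadillo was higher than platypus for 5 of 7. Of all matched genes, 13.2% were called higher in armadillo than in dog and 36.1% higher in armadillo than in platypus. Between dog and platypus 32.0% were higher in dog and 9.93% in platypus.

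WFDC2, a small secreted protein of duct and gland epithelia with 2 whey acidic protein (WAP) domains, had similar levels in dog and platypus, where it could be compared. It had 560 reads in dog (41.1 CPM, 95% interval 37.8 to 44.6) and 58 in platypus (25.9 CPM, 95% interval 19.6 to 33.4), and the armadillo table does not list it. The ratio was 1.59 (95% interval 1.21 to 2.12) in favour of dog, and 1.06 after median-of-ratios scaling. By rank among matched genes WFDC2 stood at the 64.7th percentile in dog and the 73.1th in platypus, so the direction of this small difference was not stable. Genes at 0 tie at the 15.3th percentile in platypus and the 5.14th in dog, which can raise the ranks of other platypus genes. The dog table lists 8 genes of the numbered WFDC family, of which 6 were at 0 and only WFDC1 (118 reads, 8.66 CPM) stood beside WFDC2. SLPI, the secretory leukocyte protease inhibitor, which shares the WAP fold and blocks neutrophil elastase, is listed in armadillo only. It had 92 reads there (6.96 CPM, 95% interval 5.61 to 8.54). The neutrophil protease genes ELANE, CTSG and PRTN3 are listed in no table.

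The antimicrobial members are each listed in a single species. LTF, the iron-binding lactoferrin, had 21 reads in armadillo (1.59 CPM, 95% interval 0.983 to 2.43). LCN2, a lipocalin that withholds iron from bacteria by binding their siderophores, had 116 reads in dog (8.51 CPM, 95% interval 7.03 to 10.2). Both are also stored in neutrophil granules. Neutrophil markers listed in dog summed to 29.7 CPM, 28.0 of them S100A9, which some epithelia also make, and the granule enzyme gene MPO had 1 read. In armadillo the listed markers summed to 282 CPM, 254 of them S100A12, with 4 reads of MPO and 1 of CAMP. The part of neutrophils in these levels was not tested. SLC22A17, a receptor for LCN2, stood at 10.9 CPM in dog and LRP2, a scavenger receptor that also takes up LCN2, at 13.3 CPM. Of the relatives of lactoferrin, TF, which encodes serum transferrin, stood at 66.9 CPM in dog and 90.8 in armadillo. MFI2, melanotransferrin, was 6.34-fold (95% interval 4.89 to 8.31) higher in armadillo (31.6 CPM) than in dog (4.99 CPM) and was listed at 0 in platypus.

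MUC1, the transmembrane mucin that covers the luminal and glandular surface and is removed where embryos attach in several species, is listed in armadillo only, with 64 reads (4.84 CPM, 95% interval 3.73 to 6.18). Among other membrane mucins, MUC15 was listed in all 3 species and was highest in platypus, at 51.7 CPM (95% interval 42.7 to 62.0) against 2.79 in dog and 0.378 in armadillo. It was 18.5-fold (95% interval 12.8 to 27.5) higher than in dog and 137-fold (95% interval 56.9 to 429) higher than in armadillo. The dog table lists MUC20 at 12.4 CPM, MUC4 at 1 read and MUC13 at 0. Over the whole list of family relatives, 2 of 8 genes were higher in armadillo than in dog (STC2 and MFI2), beside 13.2% of all matched genes. Against platypus, 2 of 8 were higher in dog (1 of 8 with median-of-ratios scaling) and 1 of 8 lower, beside 32.0% and 9.93%. In armadillo 1 of 2 was higher than in platypus and 1 of 2 lower, beside 36.1% and 11.0%.

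**Figure D3:**
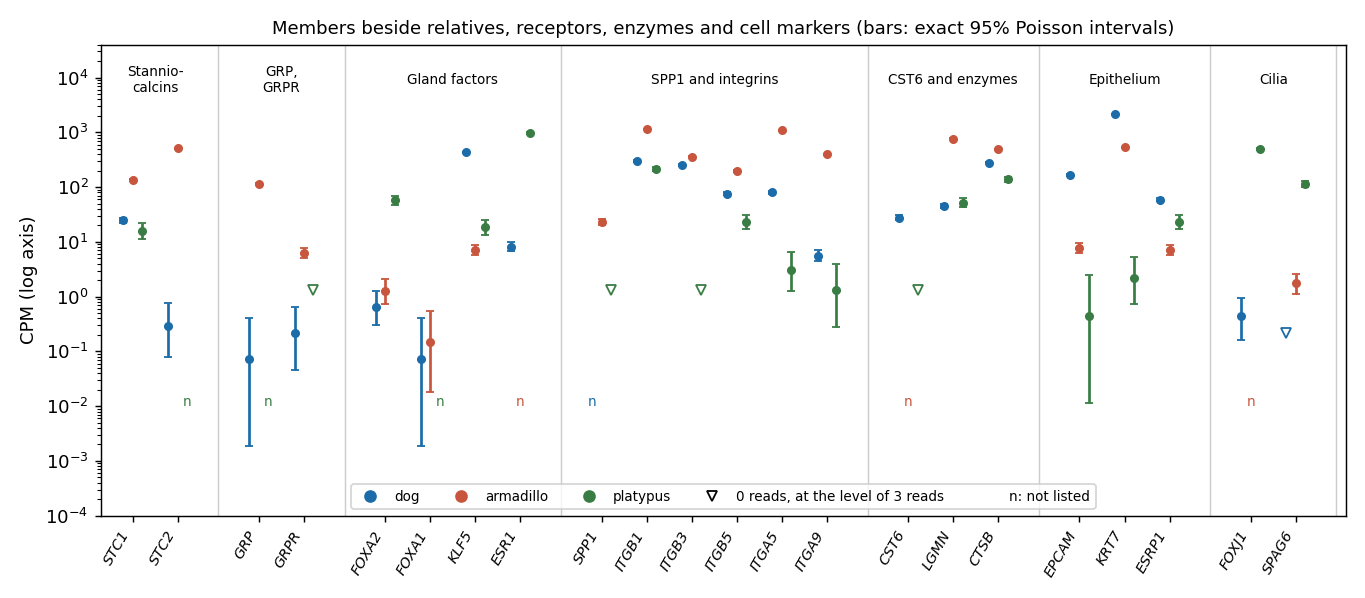
CPM (log axis) of members beside their relatives, receptors, enzymes and cell markers in the 3 libraries; bars are exact 95% Poisson intervals, open triangles mark 0 reads drawn at the level of 3 reads, n marks genes not listed, and heights are to be compared between colours within a gene, since lengths are not corrected. STC2 (517 CPM) and GRPR (6.35 CPM) are highest in armadillo like STC1 and GRP, though STC2 and GRP are not listed in platypus. KLF5 is highest in dog (433 CPM). ESR1 and FOXJ1 are higher in platypus (956 and 498 CPM) than in dog, and armadillo lists neither.

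Other known gland products differed between the species gene by gene. Of the 20 on this list, 6 were in both the dog and the armadillo table, where 1 was higher in dog and 2 in armadillo (3 in armadillo under each other scaling). ENPP2, which encodes autotaxin, the enzyme that makes lysophosphatidic acid, had 23893 reads in armadillo (1808 CPM) against 14 in dog (1.03 CPM) and 11 in platypus (4.90 CPM). MMP7, a matrix protease of gland epithelium, stood at 102 CPM in armadillo, had 1 read in dog and was listed at 0 in platypus. C3, the complement component that oestrogen induces in the uterine epithelium of rodents, was 30.6-fold (95% interval 25.2 to 37.5) higher in dog (243 CPM) than in armadillo (7.94 CPM) and 15.1-fold (95% interval 10.9 to 21.7) higher than in platypus (16.0 CPM). PIGR, which carries antibodies across gland epithelium, stood at 24.3 CPM in dog and 9.76 in armadillo and was listed at 0 in platypus. Against platypus 2 of 7 products were higher in dog and 5 of 6 in armadillo, with 3 at 0 in platypus in each comparison. The shares of all matched genes in these directions were 32.0% and 36.1%. Between dog and armadillo they were 12.6% higher in dog and 13.2% higher in armadillo.

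Levels of different genes can be compared only per length, which was possible in dog. Reads divided by the gene model length, recovered from the deposited relative abundance, gave 1138 reads per kilobase for WFDC2 (95% interval 1046 to 1237, length 492 bases) and 842 for CST6 (95% interval 760 to 931, 450 bases). STC1 followed at 363 (95% interval 325 to 403, 940 bases) and LCN2 at 192 (95% interval 159 to 231, 603 bases). Among 15084 dog genes with reads, whose median was 171 reads per kilobase, WFDC2 lay at the 87.6th percentile, CST6 at the 82.9th, STC1 at the 65.3th and LCN2 at the 52.0th. FOXA2 (6.48 reads per kilobase, 1389 bases) and GRP (2.43 reads per kilobase, 411 bases) lay at the 16.5th and 9.77th percentiles. WFDC2 exceeded CST6 by 1.35-fold (95% interval 1.18 to 1.54), CST6 exceeded STC1 by 2.32-fold (95% interval 2.0004 to 2.70) and STC1 exceeded LCN2 by 1.89-fold (95% interval 1.52 to 2.35), each beyond counting error. By reads alone CST6 and STC1 were 1.11-fold apart, so that gap rests on the lengths. The lengths may stand for unlike models, since some are multiples of 3, as coding sequences are, and that of STC1 is not. FOXA2 and GRP did not differ beyond counting error, with a ratio of 2.66 and an interval of 0.369 to 117.

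**Figure D4:**
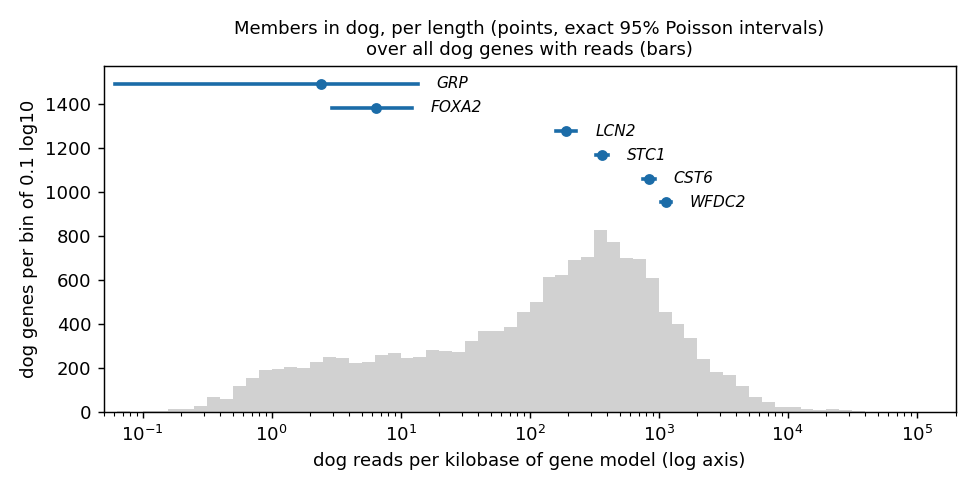
Dog reads per kilobase of gene model (log axis) for the 6 members listed in dog (points with exact 95% Poisson intervals) over all dog genes with reads (grey bars, genes per bin on the y axis; the height of a point has no meaning). WFDC2 and CST6 lie in the upper part of the distribution at 1138 and 842 reads per kilobase, and FOXA2 and GRP lie in its lower tail at 6.48 and 2.43.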

How the data were processed

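Messenger RNA of pregnant endometrium was sequenced in 1 library each of dog, armadillo and platypus. Per the submitters' processing notes Bowtie was used; the sources used here give no version, genome build or annotation. The dog values are estimated counts per gene as deposited, per the file headers, and equal mapped bases divided by 34. Of these, 516 are not whole and were rounded. Raw read counts per gene were deposited for the other species, per the file headers. The dog table also holds deposited scores: mapped bases, and a relative abundance of unstated unit. Reads divided by that abundance gave whole lengths, within 0.1 bases for 100.0% of 5644 genes with over 500 reads, once a constant of 22083782 was fitted. Taken as a library total, that constant is larger than the sum of the listed genes. Of these lengths, 59.0% were multiples of 3.

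Lines naming no gene (1 in dog, 1 in armadillo) were left out. Genes were matched by symbols that occur once in a table (6351 in all 3). No symbol is given for 2783 dog, 1663 armadillo and 7194 platypus genes, and members not listed may be among them. No member was found among 1347 accession or 1428 UniProt names of dog. That search could miss members. It took the first part of a UniProt name as the gene symbol, which it need not be. Accessions had to match exactly, version included. The RefSeq dog gene table (assembly UU_Cfam_GSD_1.0) was used for accessions only. CPM used the summed counts of each table. Ratios are of CPM without a pseudocount, with exact intervals given the sum of the 2 counts. Calls used a pseudocount of 1 CPM, a 4-fold limit and a minimum of 5 CPM in the higher library. Members, the 15 gene lists and the naming rule were chosen with earlier results of these data known. From each list other than cell markers and housekeeping genes, the 4 genes with the highest CPM and the 2 with the largest called fold per pair could be named. Named outside that rule were LGR4, GRPR, FOXA1, FOXA3, NMB, WFDC1, SLC22A17, LRP2, MUC4, MUC13, MUC20, ELANE, CTSG and PRTN3. 1 gene of the lists is not reported here. Python 3.11.15, pandas 2.3.3, NumPy 2.4.6 and SciPy 1.17.1 were used.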

Additional observations from a re-analysis of the deposited data

How the results depend on the processing

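Other scalings and pseudocounts, which can move a fold, gave 57 values for the 10 folds of members, and no called fold changed direction among them. None could have. A pseudocount cannot change the sign of a fold, and each scaling shifted ratios by less than the 4-fold limit. The sign changed in 2 values, both of small differences between dog and platypus: the log2 fold of STC1 ranged from -0.05 to 0.63 and that of WFDC2 from -0.03 to 0.66. Ranks among matched genes, chosen after seeing the data, turned 3 uncalled differences: dog minus platypus was -12.1 percentile points for STC1 and -8.42 for WFDC2, and dog minus armadillo was 2.77 for FOXA2. A library with more genes at 0 can rank its other genes higher, so these turns carry little weight. The counts of called members (2, 2 and 3 for dog against armadillo, dog against platypus and armadillo against platypus) stayed as they were under each other scaling, both other pseudocounts, a 2-fold limit, no minimum CPM and added accession names. Added names matched no member, so they could not change these counts. Nor could dropping the minimum CPM, since every uncalled member was under the 4-fold limit. At the 2-fold limit the share called among all genes rose to 49.0%, 56.7% and 63.9%, so the unchanged counts there say little about the members. Requiring 2 CPM in both libraries left 1, 0 and 1, because GRP, CST6, SPP1 and FOXA2 were under 2 CPM in the lower library. That setting left 17.3%, 18.5% and 21.8% of all genes called. Median-of-ratios scaling shifted log2 folds by -0.32 for dog over armadillo, -0.59 for dog over platypus and -0.27 for armadillo over platypus. It turned the split of all called genes between dog and armadillo from 1112 and 1170 to 864 and 1345. The dog total from the relative abundance, chosen after seeing the data, gave 646 and 1600, and between dog and platypus 2312 and 1235 against 2884 and 896. A pseudocount of 5 CPM lowered the share called among all genes to 18.0%, 31.4% and 34.5%. The order of members in dog by length was the same by reads alone. The 0 of SPP1 and of CST6 in platypus allows up to 3 reads, or 1.34 CPM. No paired analysis was possible because each species has 1 library.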
